A study of Mus musculus with 6 samples.

Results

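Sftpd, Sftpb, Krt7 and Cdh1 are 4 genes that separate a lung alveolar question from a general epithelial one: the surfactant genes Sftpd and Sftpb point to alveolar cells, while Krt7 and Cdh1 are used by many epithelia. They were chosen by name, among 10772 genes that could be tied to a row of the count tables by position, of which 4577 passed the filter on low counts; all 4 passed it. The tumours were grown from LG1233-OVA, a mouse lung cancer line (OVA is the usual short name of ovalbumin, a model antigen). The control group, sgNT, is labelled wild type, and the other group, sgUhrf1, comes from stable lines in which Uhrf1 was knocked out with CRISPR/Cas9. In both groups 1000000 cells were placed under the skin of female C57BL/6 mice, and whole tumours were taken on day 27, with 3 tumours per group. The labels do not say whether each line was 1 clone, and the hosts kept their own stroma and blood cells, so every value mixes tumour and host RNA.

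Surfactant is the lipid and protein film that keeps the alveoli of the lung from collapsing, and alveolar type 2 cells make most of it. Surfactant protein B, from Sftpb, is a small hydrophobic protein that the lipid film needs, and surfactant protein D, from Sftpd, is a secreted collectin, a lectin of innate defence that binds sugars on microbes and is also known outside the lung. Keratin 7, from Krt7, is an intermediate filament protein of simple and ductal epithelia. E-cadherin, from Cdh1, joins epithelial cells at adherens junctions, and its loss is a classical mark of a mesenchymal state.

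The rows of the deposited tables carry coordinates of another genome build than the reads, so each row was named by the gene whose exons lie under it. A row therefore holds only a piece of its gene, and the pieces are shown here because each value below is a count of read pairs over them. These are exons of GENCODE M21 on GRCm38, printed 5′ to 3′ on the strand of the gene, with the bases that the row counts in capitals.
Sftpd exon 7 of 8, chr14:41174477-41174560, minus strand: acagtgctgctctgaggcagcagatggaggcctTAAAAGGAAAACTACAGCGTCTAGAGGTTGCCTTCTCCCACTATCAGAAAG
Sftpb exon 3 of 11, chr6:72305628-72305699, plus strand: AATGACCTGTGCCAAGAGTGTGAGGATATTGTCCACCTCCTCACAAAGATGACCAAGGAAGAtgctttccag
Krt7 exon 4 of 9, chr15:101418318-101418413, plus strand: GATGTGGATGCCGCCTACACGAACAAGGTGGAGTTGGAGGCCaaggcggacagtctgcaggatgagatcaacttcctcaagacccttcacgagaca
Cdh1 exon 15 of 16, chr8:106666187-106666330, plus strand: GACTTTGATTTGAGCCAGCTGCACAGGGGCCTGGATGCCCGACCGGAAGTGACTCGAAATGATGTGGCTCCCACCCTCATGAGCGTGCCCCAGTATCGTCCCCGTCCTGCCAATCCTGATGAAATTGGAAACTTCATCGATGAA

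The rows differ in how much of the gene they see. The Sftpd row covers 297 of the gene's 2417 exon bases (12.3%), in exons 7 and 8 and in an exon of another transcript, and 862 of the row's 1403 bases lie outside the gene. The Sftpb row is the thinnest, with 130 of 1968 exon bases (6.61%), and 1703 of its 2445 bases lie outside the gene. The Krt7 row covers 859 of 7049 exon bases (12.2%) and lies wholly inside the gene. So does the Cdh1 row, with 761 of 4574 exon bases (16.6%) in exons 15 and 16. Of the 859 Krt7 bases, 605 are exon only in transcripts other than the one that gives the exon numbers. The same holds for 68 of the 130 Sftpb bases. Counting was without strand, so sense and antisense reads in these intervals cannot be told apart.

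Libraries held 5462555 to 6375069 counts. Skeletal muscle RNA set a tumour of each group apart: the 7 muscle genes with a row of their own summed to 506 CPM (counts per 1000000, TMM scaled) in sgNT replicate 2 and 423 CPM in sgUhrf1 replicate 1, against 5.67 to 30.3 CPM in the other 4. The targeted gene, Uhrf1, did not pass the test in its most counted row: log2 fold change -0.37 ± 0.23 (SE), adjusted p = 0.227 in edgeR's quasi-likelihood test, with 98.2 to 136 CPM in sgNT and 73.0 to 121 CPM in sgUhrf1. This row covers 690 exon bases. Of its other rows, the one over 238 exon bases stood at -1.08 ± 0.39 (adjusted p = 0.0524), and the one over 92 exon bases held 2, 7 and 0 counts in sgNT and none in sgUhrf1, too few to be tested. RNA counts do not show whether the protein is lost. Across all 10503 rows tested, 39.9% differed between the groups at an adjusted p of 0.05; of the named genes, 42.2% did (20.6% higher and 21.5% lower in sgUhrf1), and the median log2 fold change was near 0 (-0.0043). The labels number the tumours as biological replicates without saying whether they share a culture, so the p-values measure the spread between these tumours. In bulk tissue, fewer cells of a type and less RNA per cell cannot be told apart.

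Sftpd, Krt7 and Cdh1 were higher in sgUhrf1 tumours, and Sftpb did not pass the test. Sftpd went from near the counting floor to a moderate level, Krt7 rose 11.7-fold and Cdh1 5.79-fold. In these 3 genes every sgUhrf1 tumour lay above every sgNT tumour, a pattern that 26.5% of the 4577 genes shared in this direction. Sftpb lay within the range of very low counts in both groups.

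**Figure D1:**
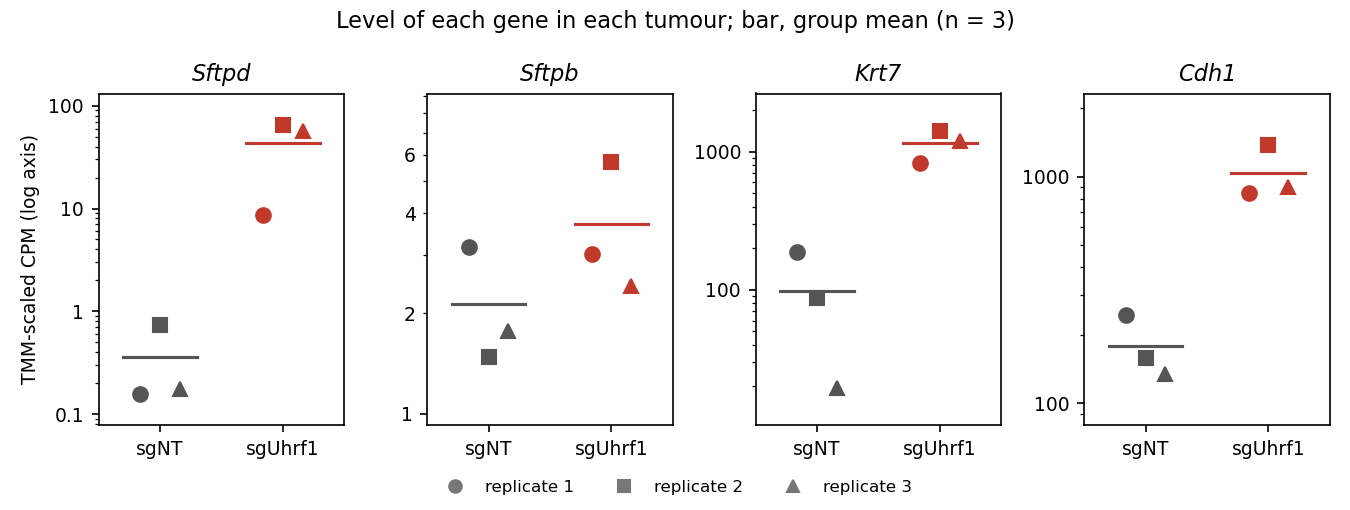
TMM-scaled CPM of each gene (log axis, its own scale in each panel) in 3 sgNT tumours (grey) and 3 sgUhrf1 tumours (red); the symbol gives the replicate number and the bar the group mean. The groups are apart for Sftpd, Krt7 and Cdh1 and overlap for Sftpb, where sgNT replicate 1 at 3.17 CPM lies above sgUhrf1 replicates 1 and 3.

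Of the surfactant genes, Sftpd (ENSMUSG00000021795.10, GRCm38 chromosome 14, 41172214 to 41185149, minus strand) had 1, 5 and 1 counts in sgNT replicates 1, 2 and 3 and 49, 409 and 258 counts in the sgUhrf1 tumours. That is 0.158, 0.741 and 0.177 CPM against 8.68, 64.9 and 56.7 CPM. The groups did not overlap, and sgUhrf1 replicate 1 was far below the other two sgUhrf1 tumours, which were close to each other. The group means were 0.359 ± 0.331 and 43.4 ± 30.4 CPM (SD, n = 3 each). The log2 fold change was 6.79 ± 0.90 (SE), a 111-fold difference, with an adjusted p of 0.000775 in edgeR. Every sgNT count was under the filter's minimum of 10. Sftpd thus passed the filter through the sgUhrf1 tumours and could only be called higher.

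The size of the Sftpd difference rests on few control counts, although its direction does not change with any single tumour. Its sgNT total of 7 counts came to 4.99 counts per kb of row, against a 90th percentile of 3.21 in the sgNT tumours over 22613 rows of at least 500 bp that touch no known exon. Without sgNT replicate 2, which gave 5 of the 7 counts, the log2 fold change was 7.82 (adjusted p = 0.00366). Without the muscle-rich tumour of each group it was 8.32 (adjusted p = 0.000246). Within sgUhrf1 the levels ranged 7.48-fold, and the lowest of them belonged to the muscle-rich tumour.

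Sftpb (ENSMUSG00000056370.15, chromosome 6, 72304610 to 72314371, plus strand) had 20, 10 and 10 counts in sgNT and 17, 36 and 11 counts in sgUhrf1, or 3.17, 1.48 and 1.77 CPM against 3.01, 5.71 and 2.42 CPM. The groups overlapped, and only sgUhrf1 replicate 2 stood above every sgNT tumour. The means were 2.14 ± 0.901 and 3.71 ± 1.76 CPM (SD, n = 3 each), with a log2 fold change of 0.80 ± 0.53 (SE) and an adjusted p of 0.258 in edgeR. A miss of the threshold does not show that Sftpb was equal in both groups. Only 5.32% of the row's bases are Sftpb exon, and its 42.5 counts per kb over all 6 tumours were exceeded by 2.18% of the rows over no known exon. How many of its 104 counts come from Sftpb was not tested.

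The keratin gene Krt7 (ENSMUSG00000023039.17, chromosome 15, 101411043 to 101430313, plus strand) had 1195, 587 and 110 counts in sgNT and 4694, 8975 and 5472 counts in sgUhrf1. In CPM these were 189, 87.0 and 19.5 against 831, 1425 and 1203. The sgNT tumours were spread widely, with replicate 3 lowest and a 9.71-fold range, while the sgUhrf1 tumours lay close together. Even so the lowest sgUhrf1 tumour was 4.39 times the highest sgNT tumour. The means were 98.6 ± 85.5 and 1153 ± 299.95 CPM (SD, n = 3 each), the log2 fold change was 3.55 ± 0.66 (SE) and the adjusted p was 0.00347 in edgeR. Without sgNT replicate 1 the log2 fold change was 4.41 (adjusted p = 0.00310).

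The adhesion gene Cdh1 (ENSMUSG00000000303.12, chromosome 8, 106603351 to 106670246, plus strand) had 1552, 1073 and 763 counts in its most counted row in sgNT and 4785, 8703 and 4097 in sgUhrf1. In CPM these were 246, 159 and 135 against 847, 1381 and 901. Levels ranged 1.82-fold within sgNT and 1.63-fold within sgUhrf1, and the lowest sgUhrf1 tumour was 3.45 times the highest sgNT tumour. The means were 180 ± 58.2 and 1043 ± 294 CPM (SD, n = 3 each), with a log2 fold change of 2.53 ± 0.29 (SE) and an adjusted p of 0.000408 in edgeR. E-cadherin RNA was thus well above the counting floor in every control tumour.

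Levels of different genes were set side by side per kb of exon under each row. In sgUhrf1 tumours the order was Cdh1 at 1371 ± 387, Krt7 at 1342 ± 349, Sftpd at 146 ± 102 and Sftpb at 28.6 ± 13.5 CPM per kb (SD, n = 3). Cdh1 and Krt7 did not differ beyond their spread, and the ranges of Sftpd and Sftpb overlapped. In sgNT tumours the order of levels was Cdh1 at 237 ± 76.4, Krt7 at 115 ± 99.5, Sftpb at 16.5 ± 6.93 and Sftpd at 1.21 ± 1.12 CPM per kb. Sftpd, which was lowest in every control tumour, was above Sftpb in every sgUhrf1 tumour. Rows also hold intron and flanking bases, and exon bases of every transcript entered the kb, so these levels are approximate.

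Whether the 4 genes differ in how far they moved cannot be shown at 0.05 with 6 tumours. For each of the 6 pairs of genes, the difference in log2 CPM was compared between groups with a two-sided exact permutation test, whose smallest possible p is 0.1. The change in sgUhrf1 was larger for Sftpd than for Sftpb by 4.94 log2 units and than for Cdh1 by 3.08, and larger for Krt7 than for Cdh1 by 1.48. For Sftpb the difference was -3.34 against Krt7 and -1.86 against Cdh1. These 5 pairs did not overlap between groups and had the smallest exact p of 0.1 (0.12 after Benjamini-Hochberg adjustment over the 6 pairs). Sftpd against Krt7 differed by 1.60 with overlapping groups (exact p = 0.3, adjusted 0.3). None of the 6 pairs could pass the threshold in this design.

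**Figure D2:**
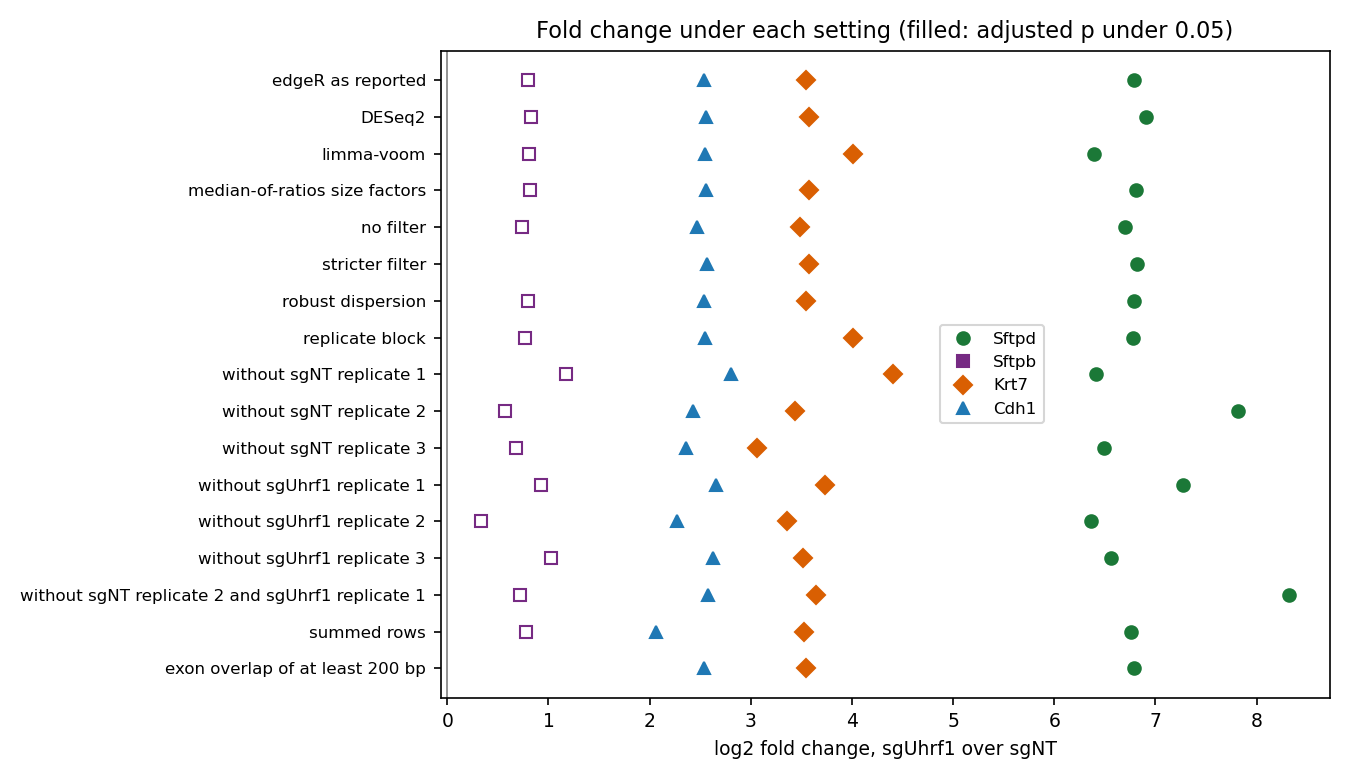
The log2 fold change of each gene (x axis, sgUhrf1 over sgNT) in the reported edgeR fit and under 16 other settings (y axis); filled symbols have an adjusted p under 0.05. Sftpd, Krt7 and Cdh1 are filled throughout, while Sftpb is open wherever it could be tested and is missing under the stricter filter and the 200 bp overlap minimum.

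Cdh1 has 4 further rows of its own upstream of the most counted one, so its rise could be followed along the gene. It was large only at the 3′ end. Over exons 6 to 8 the log2 fold change came to 0.28 ± 0.42 (SE, edgeR adjusted p = 0.626), over exon 9 to 0.56 ± 0.47 (0.371) and over exon 10 to 0.73 ± 0.51 (0.283). These 3 rows did not pass, while the row over exons 12 and 13 passed at 1.14 ± 0.38 (adjusted p = 0.0384) and the row over exons 15 and 16 gave the 2.53 above. The fitted values ascend from 5′ to 3′, and neighbouring rows among the 4 upstream ones differ by less than the larger of their standard errors. The row over exon 10 holds 76 exon bases, and 615 of its 713 bases lie outside the gene. Its place in this order is by its exon alone.

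The exons shown here mark both ends of this series: exon 6 lies in the row that changed least, exon 12 in the upstream row that passed, and exon 15, printed above, in the row that rose most.
Cdh1 exon 6 of 16, chr8:106656824-106656968, plus strand: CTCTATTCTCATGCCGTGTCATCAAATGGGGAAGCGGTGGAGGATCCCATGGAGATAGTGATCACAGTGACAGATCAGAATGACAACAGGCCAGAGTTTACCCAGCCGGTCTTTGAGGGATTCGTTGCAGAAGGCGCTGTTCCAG
Cdh1 exon 12 of 16, chr8:106663747-106663971, plus strand: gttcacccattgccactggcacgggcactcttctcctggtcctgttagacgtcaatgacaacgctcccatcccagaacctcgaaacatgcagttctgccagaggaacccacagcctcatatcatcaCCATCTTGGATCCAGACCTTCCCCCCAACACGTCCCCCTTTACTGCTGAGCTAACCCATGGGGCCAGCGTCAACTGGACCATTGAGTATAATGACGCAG

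The row over exons 6 to 8 had 229, 286 and 181 counts in sgNT and 226, 480 and 83 in sgUhrf1. The row over exons 12 and 13 had 278, 279 and 213 against 479, 907 and 189. In CPM, sgUhrf1 replicate 2 was highest of the 6 tumours in all 4 upstream rows and sgUhrf1 replicate 3 lowest in the 3 rows over exons 6 to 10, whereas replicate 3 was above every control in the last row. As a share of all counts in the 5 rows, the last row held 67.4%, 58.9% and 57.6% in sgNT and 83.5%, 81.7% and 92.0% in sgUhrf1. The shares did not overlap (61.3% ± 5.34 against 85.7% ± 5.52, SD, n = 3 each; two-sided exact permutation p = 0.1, the smallest possible).

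When each row was compared with the other rows of its gene across 2055 rows, 4.14% of rows differed, and Cdh1 as a gene differed in row use (adjusted p = 0.00392, edgeR). Among its rows only the one over exons 6 to 8 passed, with a relative log2 fold change of -1.25 (adjusted p = 0.0343). It missed the threshold when any sgNT tumour was left out (-1.39, -1.14 and -1.23 without replicates 1, 2 and 3, adjusted p = 0.0665, 0.303 and 0.165) and when sgUhrf1 replicate 1 was (-1.28, adjusted p = 0.173). Both comparisons along the gene were added after the values had been seen. Exon makes up 13.8% of the bases of the row over exons 6 to 8, 8.82%, 10.7% and 17.0% of the next 3 rows and 56.7% of the last, so the row with the largest fold change also has the largest exon share, while the row with the smallest fold change does not have the smallest; the part of the exon share in the result was not tested.

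**Figure D3:**
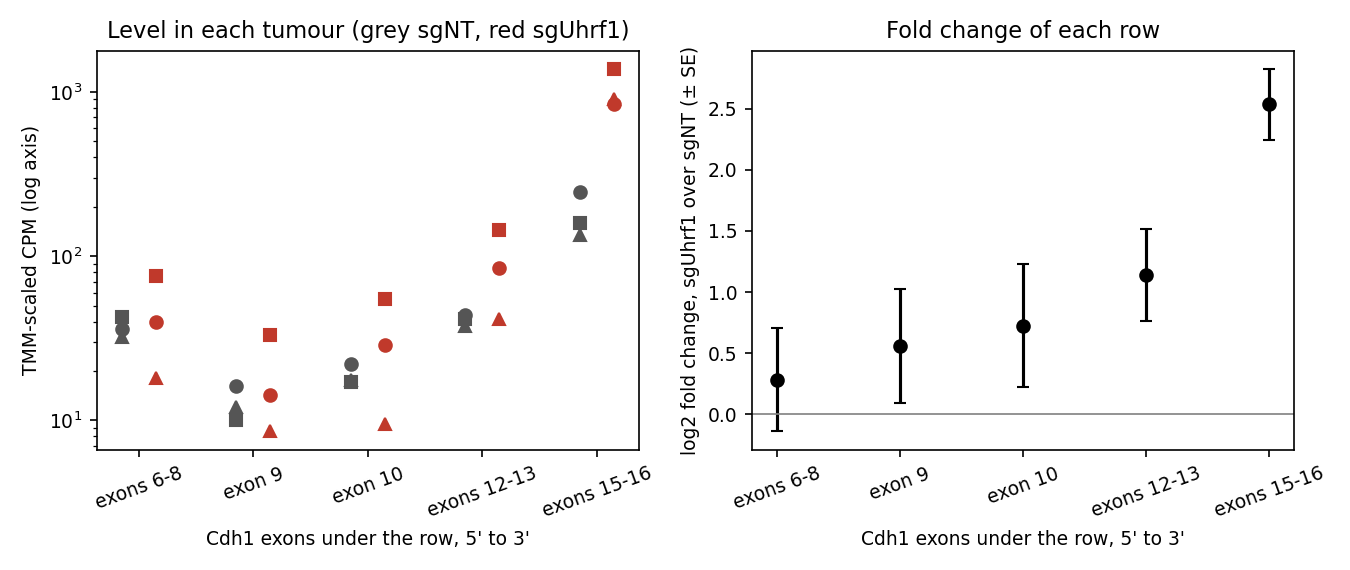
Left, TMM-scaled CPM (log axis) of the 5 Cdh1 rows from 5′ to 3′ in each sgNT tumour (grey) and sgUhrf1 tumour (red), with circle, square and triangle for replicates 1, 2 and 3; right, the log2 fold change of each row with its standard error. The groups overlap in the 4 upstream rows and are apart in the row over exons 15 and 16.

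Alveolar genes on rows of their own showed no common direction. Of 34 alveolar type 1 and type 2 genes listed, 16 had a row of their own and 14 were tested; 4 were higher, 3 were lower and the median log2 fold change was 0.04. With 20.6% of all genes higher and 21.5% lower, these counts lie near the background. The lists were written with earlier results known, and Sftpd is 1 of the 4 higher genes. Sftpd, Hopx and Spock2, all among these 4, passed the filter on low counts only through the sgUhrf1 tumours. With rows shared with a neighbour added, 7 of 18 were higher and 3 lower, with a median of 0.33. That is a larger share higher than over all genes. The higher rows so added hold Cebpa, Muc1 and Ager, at log2 fold changes of 1.18, 1.53 and 0.59, each shared with at least 1 other gene.

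Among 8 tested alveolar type 2 genes, Sftpd and Ctsh rose and Lpcat1 fell, where 20.6% of all genes were higher and 21.5% lower. Ctsh encodes cathepsin H, a protease that processes surfactant protein B but is found in many cells, and it went from 232 ± 48.8 to 758 ± 158 CPM (log2 1.71 ± 0.23 SE). Lpcat1 encodes an acyltransferase that makes the saturated lipid of surfactant, and it fell by 2.16 on the log2 scale, from 14.1 ± 3.10 to 3.12 ± 0.454 CPM, in a row with 113 exon bases. Abca3, the lipid transporter of the lamellar bodies that store surfactant, did not pass (log2 -0.51 ± 0.38, adjusted p = 0.309). The other type 2 genes tested, Etv5, Scd1, Lyz2 and Sftpb, did not pass either. The surfactant genes Sftpa1 and Sftpc have no row of their own and were not analysed here.

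Among 6 tested alveolar type 1 genes, Hopx and Spock2 rose and Cav1 and Cav2 fell, where 20.6% of all genes were higher and 21.5% lower. Hopx and Spock2 had under 10 counts in every sgNT tumour. They passed the filter through the sgUhrf1 tumours and could only be called higher. Hopx, a homeodomain cofactor also known in heart and gut, had 0, 1 and 0 counts in sgNT and 20, 19 and 14 in sgUhrf1, a count ratio of 60.1 with a 95% exact binomial interval of 10.3 to 2418 that covers counting error only. Spock2, a matrix proteoglycan, went from 0.744 ± 0.132 to 8.59 ± 2.02 CPM. The caveolin genes Cav1 and Cav2, which build plasma membrane caveolae in many mesenchymal cells as well, fell by 1.44 and 0.74 on the log2 scale; the Cav2 call was lost without the muscle-rich tumour of each group. The water channel gene Aqp5 and the membrane glycoprotein gene Pdpn had log2 fold changes of 0.26 ± 0.29 and -0.06 ± 0.34.

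Among regulators of lung lineage tested on rows of their own, 2 of 5 were higher and 0 lower, where 20.6% and 21.5% of all genes were. The list held 18 genes. Tbx2, a T-box factor of the lung mesenchyme and other organs, rose from 8, 6 and 4 counts to 69, 67 and 46 counts (log2 3.49 ± 0.42 SE). Its sgNT counts were all under the filter's minimum of 10, so it could only be called higher. Etv4 was higher by 0.60 ± 0.17, a call lost under 7 of 16 other settings, and Foxp1, Etv5 and Irx1 did not pass. With shared rows added, 3 of 8 were higher and 0 lower. The higher row so added holds Cebpa, is shared with Gm35665 and stood at 1.18 ± 0.20 on the log2 scale. Nkx2-1, the homeodomain factor that directs lung and thyroid identity, lies in a row shared with Gm26973 that covers 601 of its exon bases, and the row held 1 count in all 6 tumours together. A count of 0 in a tumour allows up to 3 counts, or 0.445 to 0.660 CPM. The single airway gene tested on a row of its own, Bpifb1, which encodes a secreted airway and salivary protein, had 1 count in sgNT and 189 in sgUhrf1, a ratio of 214 with an interval of 38.0 to 8509. Bpifb1 likewise passed the filter through the sgUhrf1 tumours and could only be called higher.

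Among general epithelial genes, 10 of those tested rose and 3 fell. The lists of simple keratins, adherens junction and adhesion, tight junction, desmosome and epithelial regulators held 80 genes, of which 27 had their own row and 18 were tested. Their median log2 fold change was 1.40, and the counts stand against 20.6% higher, 21.5% lower and a median near 0 over all genes. Krt7 and Cdh1 are 2 of the 10. With rows shared with a neighbour added, 21 of 39 were higher and 5 lower. Without the muscle-rich tumour of each group, 9 were higher and 1 lower among general epithelial genes, and 4 and 2 among alveolar genes. Whether the epithelial and alveolar counts differ from each other was not tested.

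**Figure D4:**
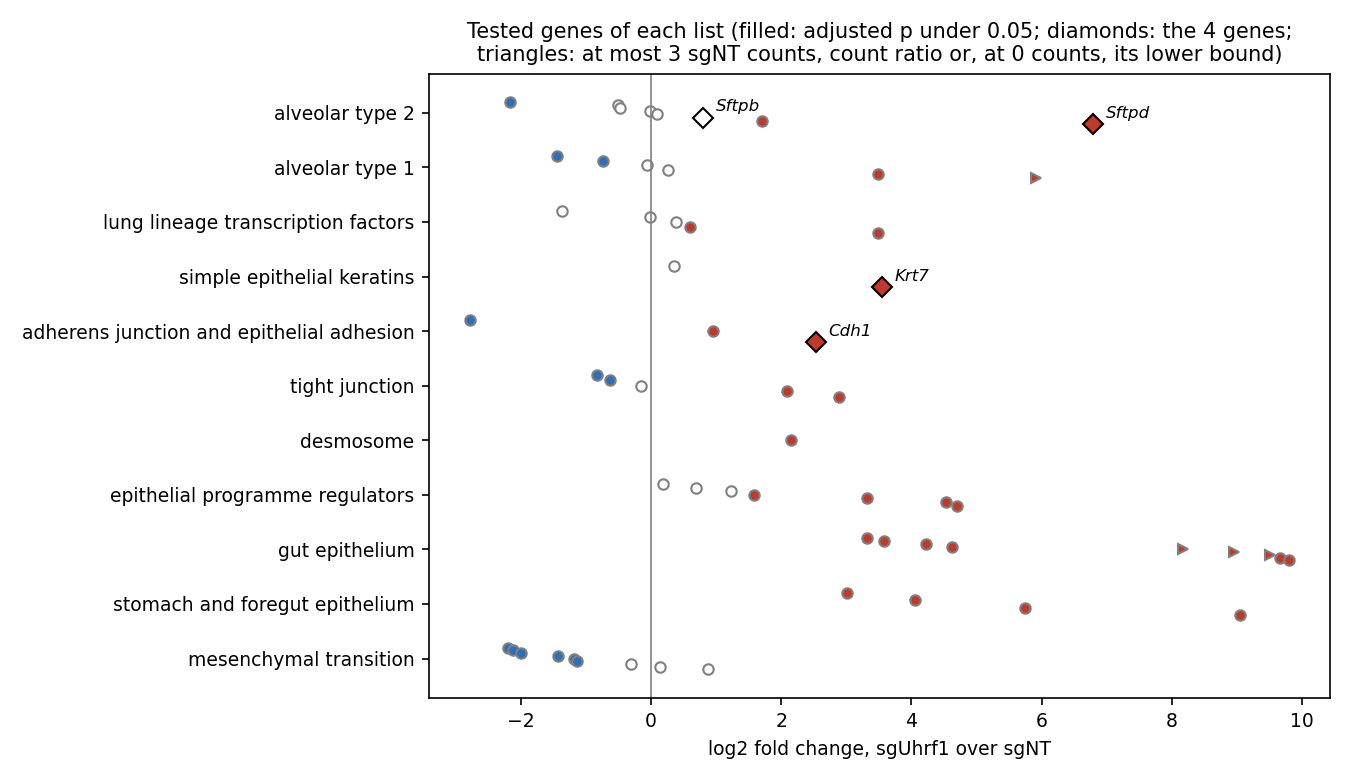
The log2 fold change (x axis) of every tested gene with its own row in 11 lists (y axis); filled symbols passed an adjusted p of 0.05 (red higher, blue lower), diamonds are the 4 genes, and triangles are genes with at most 3 sgNT counts, drawn at the count ratio or, at 0 counts, at its lower bound. Alveolar genes lie on both sides of 0, the genes listed as epithelial regulators lie to the right of 0, and all tested gut and stomach genes are filled and to the right.

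Genes on the list of epithelial regulators rose or did not pass, while genes of adhesion and tight junctions moved both ways. Of 7 tested on rows of their own, 4 rose, where 20.6% of all genes did. Ehf, an epithelial ETS factor, rose by 4.70 ± 0.51 on the log2 scale and Klf5, an epithelial Krüppel-like factor, by 1.58 ± 0.22. Spint2, an inhibitor of membrane serine proteases, rose by 4.54 ± 0.38 and Tmprss2, such a protease, by 3.32 ± 0.59, and these are not transcription factors. Ehf and Tmprss2 had 2 and 5 counts in sgNT replicate 3, under the filter's minimum of 10, so they needed sgUhrf1 tumours to pass it. The other 3, Esrp2, Klf4 and Lad1, had log2 fold changes of 1.23, 0.69 and 0.19. The rows that hold Esrp1, an epithelial splicing factor, and Grhl2, an epithelial transcription factor, rose by 6.25 ± 0.75 and 3.63 ± 0.52, but each is shared with another gene. Other shared rows of this list, such as those of Grhl3 and Rab25, did not pass (0.37 ± 0.35 and 0.24 ± 0.19). With shared rows added, 8 of 13 were higher and 0 lower.

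Of the simple keratins beside Krt7, only Krt20, typical of gut lining, was tested on its own row, and it stood at 231 ± 41.9 and 294 ± 107 CPM (log2 0.35 ± 0.28, adjusted p = 0.356). Krt8, the partner keratin of simple epithelia, lies in a row shared with Gm36026 and was already abundant in the control tumours, at 5692 to 8315 CPM against 6368 to 13202 CPM in sgUhrf1 (log2 0.55 ± 0.32, adjusted p = 0.198). Krt19 was below the filter, with 5, 0 and 2 counts in sgNT and 18, 32 and 9 in sgUhrf1.

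Of 3 adhesion genes tested, Cdh1 and Itgb4 rose and Itga6 fell. This and the counts that follow stand against 20.6% higher and 21.5% lower over all genes. Itgb4 and Itga6 encode the paired chains of the hemidesmosome integrin, and they moved in opposite directions, by 0.95 ± 0.30 and -2.78 ± 0.52 on the log2 scale; the Itgb4 call was lost under 5 settings. Of 5 tight junction genes, F11r and Cgn rose by 2.09 ± 0.25 and 2.90 ± 0.47, while Cldn12 and Tjp1 fell by 0.82 and 0.63; the Cldn12 call was lost under 5 settings and the Tjp1 call under 3. The desmosome list had a single gene tested on its own row, Evpl, which encodes envoplakin of the cornified envelope and was higher by 2.15 ± 0.58. That call was lost under 3 settings, each leaving out a tumour (sgNT replicate 2 or 3, or sgUhrf1 replicate 2). With shared rows added, 4 of 7 on the desmosome list were higher and 2 lower. The lower rows, of Pkp1 and Ppl, had log2 fold changes of -2.17 and -1.04.

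Genes on the gut, stomach and foregut lists rose together with Krt7 and Cdh1. All 13 tested gut, stomach and foregut genes were higher in sgUhrf1, where 20.6% of all genes were. Their median log2 fold change was 5.74, also with genes without control counts set at their lower bound. Without the muscle-rich tumours 11 passed, and with robust dispersions 10 did. These lists were written with earlier results known. Muc3, Lypd8, Agr2, Spink4 and Oit1 had 0 to 5 counts in each sgNT tumour. They passed the filter on low counts through the sgUhrf1 tumours, so they could only be called higher. Muc6, Tff1, Tff2 and Vil1 had 2, 7, 1 and 9 counts in sgNT replicate 3, under the filter's minimum of 10. They too needed sgUhrf1 tumours to pass it, so the filter bears on the count of 13 higher. Oit1, a secreted gut protein also called Fam3d, went from 0.540 ± 0.248 to 495 ± 121 CPM, and Muc6, a gland mucin of the stomach, from 0.999 ± 0.804 to 547 ± 649 CPM. Muc3, a membrane mucin of the intestine, and Lypd8, a protein of the colon lining, had no counts in sgNT and were at least 497-fold and 724-fold higher, against a floor of 3 counts over the group. Cdh17, the intestinal cadherin and a relative of Cdh1, rose by 3.58 ± 0.31 on the log2 scale, from 52.8 ± 20.3 to 633 ± 142 CPM. Of the 4 classical and related cadherins tested, Cdh1 and Cdh17 rose and Cdh6 and Cdh13 had log2 fold changes of -0.73 and -0.70 without passing. Krt20, typical of gut lining but listed with the simple keratins, did not pass (log2 0.35 ± 0.28 SE). The mucin gene Muc5ac, listed with airway genes, had 8, 4 and 4 counts in sgNT and 0 in each sgUhrf1 tumour, and was not tested.

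Sftpd is a collectin as well as a lung gene. Of 4 tested collectins and surfactant-like genes, Sftpd and Colec11 were higher, where 20.6% of all genes were. Colec11, a circulating collectin, had a log2 fold change of 1.27 ± 0.44 and lost its call under 9 of the 14 settings that tested it. Colec12, a scavenger receptor with a collectin domain, stood at 95.6 ± 14.8 and 114 ± 45.8 CPM and did not pass.

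Mesenchymal genes moved the other way. Of 9 tested, 6 were lower, where 21.5% of all genes were, and the other 3 did not pass. The median log2 fold change was -1.18. The log2 fold change was -2.20 for Hmga2, a chromatin protein of embryonic and tumour cells, -2.11 for Fn1, which encodes fibronectin, -1.99 for the matrix gene Tgfbi and -1.43 for Zeb2, a repressor of Cdh1. Without sgNT replicate 2, and without the muscle-rich tumour of each group, 4 were lower, and Zeb2 did not pass. Snai1 and Sparc had log2 fold changes of -0.30 and 0.14.

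Markers of other cells were measured beside these genes, and their part in the results was not tested. Of 4 leukocyte genes tested, 3 were higher (Lck, Zap70 and Lat, all of T cell signalling), where 20.6% of all genes were. The other, Ptprc, did not pass (log2 0.30 ± 0.36 SE, adjusted p = 0.534 in edgeR). The summed level of the 6 with a row ran from 14.4 to 96.1 CPM in sgNT, where the B cell gene Ms4a1 gave 58.3 CPM of the highest, and from 70.0 to 171 CPM in sgUhrf1. Markers of the mammary gland, which female mice have under the skin, summed to 1.24 to 2.69 CPM in sgNT and 19.7 to 77.3 CPM in sgUhrf1 over 6 genes; the milk protein genes Csn1s1 and Wap were at 0 in every tumour, and most of the sum was Areg in sgNT and Wfdc18 in sgUhrf1. Of 3 skin genes tested, Ivl and Krt79 rose and Lor fell, and the 7 with a row summed to 69.7 to 116 CPM in sgNT and 49.2 to 155 CPM in sgUhrf1. Zap70, Ivl and Krt79 each had sgNT tumours under the filter's minimum of 10 counts, so they needed sgUhrf1 tumours to pass it. The basal keratin gene Krt5 had 1 count in sgNT and 131 in sgUhrf1, all of the latter in replicate 2. The muscle genes tested, Ckm, Atp2a1 and Ryr1, had log2 fold changes of -0.19, -0.06 and 0.09 with a muscle-rich tumour in each group. These values turned with the tumours kept: over the settings Ckm ran from -2.47 to 5.73, and was called higher without sgNT replicate 2, and Atp2a1 from -3.38 to 4.70. Sftpd, Krt7 and Cdh1 passed without the muscle-rich tumours, with log2 fold changes of 8.32, 3.65 and 2.58.

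Hosts were female, and RNA of the 4 Y-linked genes Ddx3y, Uty, Kdm5d and Eif2s3y was counted in all tumours. Their sum ran from 70.5 to 95.8 CPM in sgNT and from 78.1 to 230 CPM in sgUhrf1, and of the 4 only Eif2s3y passed (log2 1.70 ± 0.45), though not without sgUhrf1 replicate 3 or without the muscle-rich tumour of each group; Ddx3y passed without sgUhrf1 replicate 2. This list was added after the data had been seen, and how far the share of grafted cells moves the 4 genes was not tested.

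Across the 6 tumours, the genes most like each of the 4 in log2 CPM, among 4510 other genes above a mean log2 CPM of 1, were found by Pearson correlation as a description. All of these points share the group difference and the library. Krt7 was closest to Lgals4 (r = 0.999), a gut galectin, followed by Misp and Onecut3 (both 0.997). Cdh1 was closest to Mob3b, Sh2b1 and Gm2379 (0.999, 0.999 and 0.998), and Sftpd to Uap1, Tcea3 and Amer2 (0.994, 0.993 and 0.991), where the Uap1 row covers 51 exon bases. Sftpb was closest to Ceacam16, Cfap69 and Porcn (0.980, 0.978 and 0.969), none of which passed the test. Among the 4 genes, Krt7 and Cdh1 were most alike (r = 0.958) and Sftpd and Sftpb least (r = 0.594).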

How the data were processed

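Poly(A) RNA of 6 tumours was sequenced as read pairs. The authors deposited raw counts per feature, in a table for each tumour. The submitters' processing notes name fastp, STAR and featureCounts and the build GRCm38, and per the file headers featureCounts 2.0.1 used exons of GENCODE M26, whose coordinates are those of another build, without strand. The versions of fastp and STAR were not given in the sources used. Rows were therefore named by position: a row took a gene where it covers at least 50 bp of exons of only that GENCODE M21 gene, small RNAs ignored, and the most counted row stood for the gene. This named 13437 of 53599 rows, with 40.3% of the counts; the other rows stayed in the fits.

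Rows were tested with edgeR 4.0.16 (quasi-likelihood, TMM, filterByExpr with minimum count 10 and total 15, Benjamini-Hochberg over 10503 rows, threshold 0.05), and the fit was tested on simulated data. CPM uses TMM-scaled libraries. DESeq2 1.42.0, limma 3.58.1 and 14 other settings were alternatives. In each list up to 4 called genes, or up to 2 by counts, are named; others were named after their values were seen. The genes, lists and alternatives were chosen with earlier results of these data known. Same-numbered tumours of the groups did not deviate together (r = -0.079, -0.021 and 0.050), so the numbers were not used as pairs. The values of 2 listed genes are not reported here.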

Additional observations from a re-analysis of the deposited data

How the results depend on the processing

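Sftpd, Krt7 and Cdh1 kept their direction and an adjusted p under 0.05 in all 16 alternative settings (log2 6.36 to 8.32, 3.06 to 4.41 and 2.06 to 2.80; highest adjusted p 0.0307, 0.0214 and 0.00432), and Sftpb passed in 0 of the 14 that tested it (0.33 to 1.17, adjusted p 0.178 to 0.698). Taking another Cdh1 row in place of the most counted one gave 0.28, 0.56 and 0.73 without a call and 1.14 with one. Leaving out each tumour in turn moved the relative log2 fold change of the Cdh1 row over exons 6 to 8 between -1.47 and -1.09. Without the muscle-rich tumour of each group, 1094 rows were higher and 771 lower (2121 and 2066 with all tumours), and 522 genes higher and 384 lower (945 and 985); leaving out 1 tumour at a time gave 1431 to 2020 rows higher and 1259 to 1908 lower, and 657 to 921 genes higher and 613 to 902 lower, lowest for lower counts without sgNT replicate 2. These settings test fewer tumours. General epithelial genes lower went from 3 to 1 without sgNT replicate 2, without sgUhrf1 replicate 1, without both, and with an overlap of at least 200 bp, while the count higher stayed within 1.5 times of 10. With the replicate number as a block, 1838 rows were higher and 1807 lower, and the log2 fold changes of Sftpd, Sftpb, Krt7 and Cdh1 were 6.77, 0.77, 4.01 and 2.55; it changed no call among the 4. The 4 genes never changed sign. Among other named genes, none of them called with all tumours, the sign turned in 1 to 7 settings for Ckm, Atp2a1, Ryr1, Pdpn, Sparc, Lad1, Cdh13, Colec12, Etv5, Scd1, Areg and Ptprc. The median of the alveolar genes ran from -0.21 to 0.24. Short exon pieces, intron and flanking bases and the low counts of Sftpb and of Sftpd in sgNT limit what these rows can show.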

Other observations

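A few genes on the lists were picked after their values were seen. Krt5 and Ms4a1 each stood out in 1 tumour, and Dsg3 was counted only in sgUhrf1. Krt5, a keratin of basal cells, had 131 counts in sgUhrf1 replicate 2 and 0 or 1 in the other 5 tumours. Ms4a1, which encodes the B cell protein CD20, had 329 counts in sgNT replicate 3 and 0 to 3 elsewhere. Dsg3, a desmosomal cadherin of stratified epithelia, had no counts in sgNT and 47, 60 and 5 in the sgUhrf1 tumours, below the filter of the test.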
